A study of Homo sapiens with 2 samples.

Results

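The genes described here are LINP1 and its neighbours on chromosome 10, namely IL15RA, RBM17, PFKFB3, PRKCQ and PRKCQ-AS1 at lower coordinates and SFMBT2, ITIH5, TAF3 and GATA3 at higher coordinates. They were chosen by name, as rows that the count table places between about 5.8 and 8.2 Mb of that chromosome in the GRCh37/hg19 assembly. They make up 10 of the 44591 genes of the table, and each of the 10 had at least 10 reads summed over both libraries, as had 19840 genes in all. By the table, 8 of them are protein-coding and 2, LINP1 and PRKCQ-AS1, are long noncoding RNAs (lncRNAs). The comparison asks whether the RNA of the neighbours differed when LINP1 was depleted, and how any difference varied with distance from LINP1.

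HSC-1 is a cell line of cutaneous squamous cell carcinoma (cSCC). Its cells were transfected at about 70% confluency with the control oligonucleotide siNC or with the siRNA siLINP1, kept 6 h without serum and for a further 24 h after the medium change, and total RNA was sequenced. Both libraries therefore come from transfected cells of the same line, and the siRNA is what differs between them by the labels. There was 1 library per condition, with 18829544 reads on genes in siNC and 15383081 in siLINP1, so no difference has a replicate check and every interval given here covers counting error only. PCR duplicates were not told apart, and no p-value was computed.

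LINP1 is an lncRNA named for a role in non-homologous end joining, the repair of DNA breaks without a template. Some lncRNAs act in cis, on genes near their own site of transcription, and others act in trans after leaving it. An siRNA degrades the processed RNA and is not directed at the act of transcription, so it bears on the transcript and not on the DNA of the locus. The neighbours have no common pathway. They include genes of lymphocyte signalling (PRKCQ, IL15RA), splicing (RBM17), glycolysis (PFKFB3), chromatin and transcription (SFMBT2, TAF3, GATA3) and the extracellular matrix (ITIH5).

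Marker genes were used to describe the cells, and the squamous markers were mixed, some well read and others near 0. Of 15 squamous keratinocyte markers, 7 were under 1 RPKM (reads scaled by gene length and by the total of the library) in both libraries. In the order siNC then siLINP1, the reads of the basal keratin KRT5 numbered 32 and 24, those of the basal factor TP63 numbered 6 and 8, and those of the integrin ITGB4 numbered 5990 and 3962. LAMB3 had 1958 and 1504 reads and CDH1 had 14 and 3. KRT14 differed between the libraries, with 243 and 87 reads, while KRT15 (107 and 130) and KRT6A (31 and 45) went the other way. VIM, a mesenchymal gene, had 61097 and 41992 reads, and with SPARC (34148 and 21107) it held most of the 99418 and 66016 reads of 9 mesenchymal markers. Of these 9, 3 were under 1 RPKM in both libraries (COL1A2, COL3A1 and THY1). The 9 T cell markers had 48 and 46 reads in sum, of which CD4 held 34 and 38. CD3D, CD3E and CD3G were at 0 in both, so these defining markers of T cells, the cells best known for PRKCQ, were not detected. The 6 blood cell markers had 1743 and 1325 reads, nearly all from CD68, and the 5 melanocyte markers had 784 and 770, of which MITF held 741 and 727, with TYR at 0 in both and 4 of the 5 under 1 RPKM in both. The 13 gastric markers summed to 439 reads in siNC against 54 in siLINP1, with 10 of the 13 under 1 RPKM in both libraries. Reads of PGC (194 and 0), PGA3 (95 and 0) and LIPF (82 and 0) set the siNC library apart. The list did not fall as a whole, since ATP4A (13 and 28 reads) and MUC6 (17 and 23) went the other way. The part of these differences in the results on the neighbours was not tested.

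The siRNA oligonucleotides that the study lists against LINP1 are shown first because they mark the place where the locus was targeted. Which of the pair was used for sequencing is not given in the sources used here. Each is printed with the reference bases around it, on the plus strand of GRCh37, with the 19 bases of the target site in capitals and 20 bases on either side in lower case. The first lies at chr10:6780737-6780795 and the second at chr10:6780467-6780525, flanks included.
siLINP1_01: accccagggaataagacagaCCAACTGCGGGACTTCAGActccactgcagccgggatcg
siLINP1_02: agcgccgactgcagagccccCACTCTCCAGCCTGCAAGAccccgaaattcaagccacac

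Both sites lie inside the span that the count table gives LINP1, on the plus strand from 6779344 to 6780901, and in the last exon of all 4 LINP1 transcripts of the GENCODE annotation. Each matched chromosome 10 at 1 place, and among all annotated transcripts the 19 bases were found in those of LINP1 alone. The longest run of bases that siLINP1_01 shared with an annotated transcript of another gene described here was 10 bases, in ITIH5 on the opposite strand. For siLINP1_02 it was 11 bases, in ITIH5 on the same strand and in LINC00707, the next well-read gene beside LINP1, on the opposite strand. Shorter runs such as these are a description of the letters and say nothing on binding.

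LINP1, the targeted gene, was counted with 167 reads in the siNC library and with 23 in the siLINP1 library. After scaling by median-of-ratios size factors, its log2 fold change (siLINP1 over siNC, without a pseudocount) was -2.65, with a 95% interval from -3.35 to -2.02. It was thus present at 0.159 of its siNC level (95% interval 0.0982 to 0.247). In bulk RNA, fewer cells with LINP1 and less LINP1 per cell cannot be told apart. Per length it stood at 10.7 RPKM in siNC and 1.80 RPKM in siLINP1. Among the 10 genes its level ranked 3 of 10 in siNC and 7 of 10 in siLINP1.

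**Figure D1:**
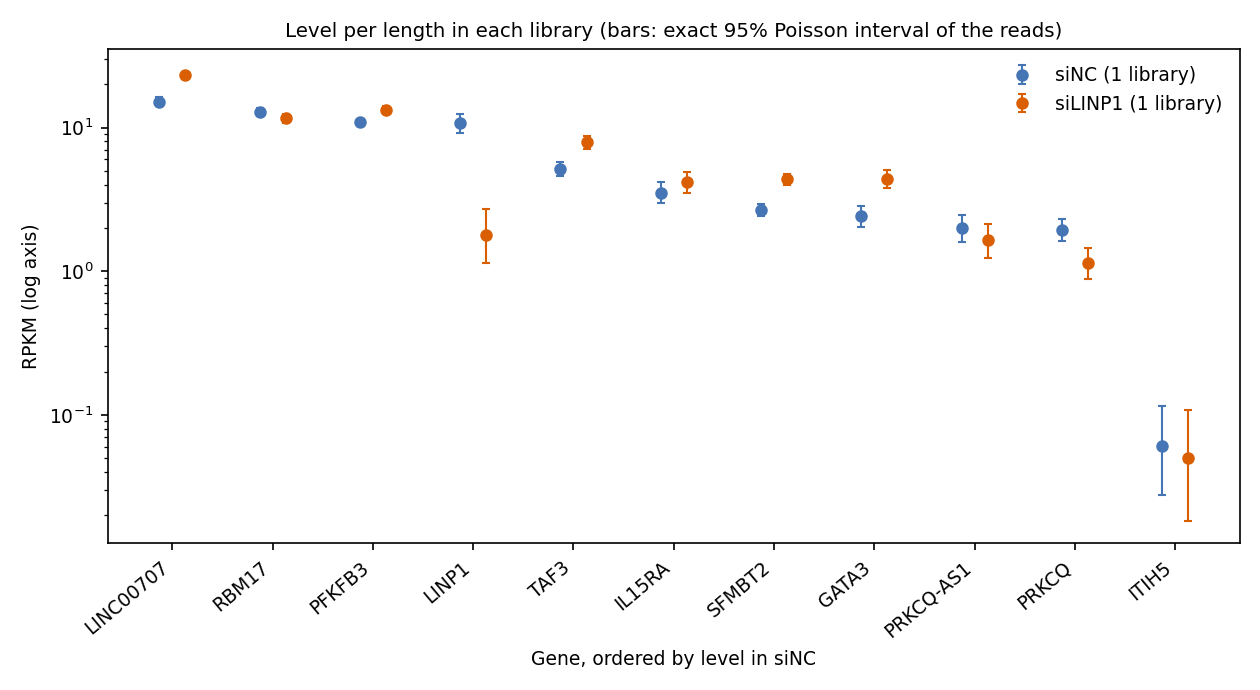
RPKM on a log axis of the 10 genes and of LINC00707 in the siNC library (blue) and the siLINP1 library (orange), ordered by the level in siNC. Bars are exact 95% Poisson intervals of the reads. In siLINP1, LINP1 is well below its siNC level and PRKCQ is also below its own. PFKFB3, SFMBT2, TAF3, GATA3 and LINC00707 are above theirs, and ITIH5 is near 0.05 RPKM in both libraries.

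The plot of levels shows how the neighbours were expressed. RBM17 was the highest of the 10 in siNC, with 12.9 RPKM (95% Poisson interval 12.1 to 13.7), followed by PFKFB3 with 10.9 (10.2 to 11.5) and LINP1 with 10.7 (9.13 to 12.4). The last 2 of these overlapped. TAF3 had 5.15 RPKM, IL15RA 3.53 and SFMBT2 2.66, and the intervals of these 3 were apart from each other. GATA3 (2.42 RPKM), PRKCQ-AS1 and PRKCQ (1.94 RPKM) followed, and from SFMBT2 down to PRKCQ no gene was told apart from the next in order. ITIH5 was at 0.0610 RPKM. In siLINP1 the order began with PFKFB3 (13.3 RPKM) and RBM17 (11.6), and GATA3 (4.40), SFMBT2 (4.37) and IL15RA (4.15) had overlapping intervals. The RPKM values are scaled by the total count of each library and the fold changes by size factors.

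Of the 9 neighbours, 2 were higher in siLINP1 by more than 1.5-fold (GATA3 and SFMBT2) and 1 was lower (PRKCQ). Over the 19840 genes kept, the share past 1.5-fold was 14.4% upward and 13.0% downward. The whole counting interval lay above 0 for 4 neighbours (PFKFB3, SFMBT2, TAF3 and GATA3) and below 0 for 2 (RBM17 and PRKCQ), and it held 0 for 3 (IL15RA, PRKCQ-AS1 and ITIH5). Across all genes kept it lay above 0 for 23.0% and below 0 for 25.6%. Leaving out ITIH5, which had 15 reads, the 8 neighbours with at least 100 reads can be set beside the 13336 genes read as well, of which 8.72% lay past 1.5-fold upward and 6.77% downward, with the interval above 0 for 28.8% and below 0 for 33.4%. The median log2 fold change of the 9 neighbours was 0.15, and that of all genes kept was -0.023. With 9 genes, 1 gene is 11.1% of them, so no difference of the neighbours from the background is read from these shares.

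The nearest members of the set are PRKCQ and PRKCQ-AS1. PRKCQ encodes protein kinase C theta, known for signalling from the T cell receptor, and lies on the minus strand from 6436059 to 6622608, 157 kb from LINP1. Its reads numbered 137 in siNC and 66 in siLINP1, the lower count in the siLINP1 library. The log2 fold change of PRKCQ was -0.84 (95% interval -1.29 to -0.41), the lowest value among the 9 neighbours. Its fold was 0.557, compared with 0.159 for LINP1, and the change of LINP1 was lower than that of PRKCQ by a log2 difference of -1.81 (95% interval -2.63 to -1.01).

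PRKCQ-AS1 is the antisense RNA that begins at the 5′ end of PRKCQ and runs the other way, on the plus strand from 6622387 to 6627323. It was read 85 times in siNC and 57 times in siLINP1. Its log2 fold change was -0.37 with an interval from -0.88 to 0.13, which holds 0, so no difference was detectable at this depth. The difference of PRKCQ from PRKCQ-AS1 was -0.48 (95% interval -1.15 to 0.20), so that the changes of this pair were not told apart. By the table the spans of the pair overlap by 222 bases, and the strand setting of the counting is not given in the sources used here, so reads of the overlap could be those of either gene. In the GENCODE annotation, which ends PRKCQ at 6622263 and starts PRKCQ-AS1 at 6622381, no exons of the pair overlap.

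Further from LINP1 on the same side, PFKFB3 and RBM17 were the best-read genes of the set. PFKFB3 encodes an enzyme that makes and breaks down the sugar phosphate by which glycolysis is switched up. It lies on the plus strand from 6186841 to 6277508, 502 kb from LINP1, with 1024 reads in siNC and 1023 in siLINP1. Since the siLINP1 library was the smaller one, equal counts gave a log2 fold change of 0.21 (95% interval 0.082 to 0.33). RBM17 encodes a splicing factor that helps to choose the 3′ splice site, and lies on the plus strand from 6130949 to 6159422, 620 kb away. Its reads were 959 in siNC and 706 in siLINP1, and the log2 ratio was -0.23 (95% interval -0.37 to -0.091). These adjacent genes on the same strand differed from each other by 0.44 (95% interval 0.25 to 0.63), and each alone was within 1.5-fold.

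IL15RA encodes the chain of the interleukin-15 receptor that binds the cytokine and presents it to neighbouring cells. It lies on the minus strand from 5994334 to 6020150, 759 kb from LINP1, with 147 reads in siNC and 141 in siLINP1. Its log2 fold change was 0.15 with an interval from -0.19 to 0.49, so no difference was detectable. In the GENCODE annotation, which extends IL15RA further than the table does, it shares 151 exonic bases on the same strand with ENSG00000232807, which the table lists with 213 and 154 reads.

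On the side of higher coordinates, the nearest member is SFMBT2, which encodes a Polycomb group protein that binds methylated histones. It lies on the minus strand from 7200586 to 7453448, 420 kb from LINP1. SFMBT2 was read 404 times in siNC and 542 times in siLINP1, the higher count in the smaller library. Scaled, this gave a log2 fold change of 0.63 (95% interval 0.44 to 0.82), a fold of 1.55, and it differed from PRKCQ, on the other side of LINP1, by 1.48 (95% interval 1.00 to 1.96).

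TAF3 encodes a subunit of TFIID, the complex that recognises core promoters. It lies on the plus strand from 7860467 to 8057016, 1080 kb from LINP1, with 320 reads in siNC and 400 in siLINP1. This amounted to a log2 fold change of 0.53 (95% interval 0.32 to 0.75), a fold of 1.45, just under the threshold of 1.5-fold.

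GATA3, the farthest of the set at 1316 kb, encodes a zinc finger transcription factor of T helper cells, breast epithelium and epidermis. It lies on the plus strand from 8096667 to 8117164. Its reads numbered 140 in siNC and 208 in siLINP1, and its log2 fold change of 0.78 (95% interval 0.46 to 1.10) was the highest of the 9 neighbours. The value of GATA3 differed from that of TAF3 by 0.25 (95% interval -0.14 to 0.64), so that their order was not resolved. GATA3-AS1, its divergent antisense partner, had 0 reads in siNC and 5 in siLINP1, too few to be kept.

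ITIH5, a heavy chain of the inter-alpha-trypsin inhibitors, which bind hyaluronan in the matrix, was hardly expressed. It lies on the minus strand from 7601232 to 7708961, between SFMBT2 and TAF3, with 9 reads in siNC and 6 in siLINP1. Its interval, from -2.15 to 1.28 around a log2 fold change of -0.38, allows both a fall and a rise of more than 2-fold.

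**Figure D2:**
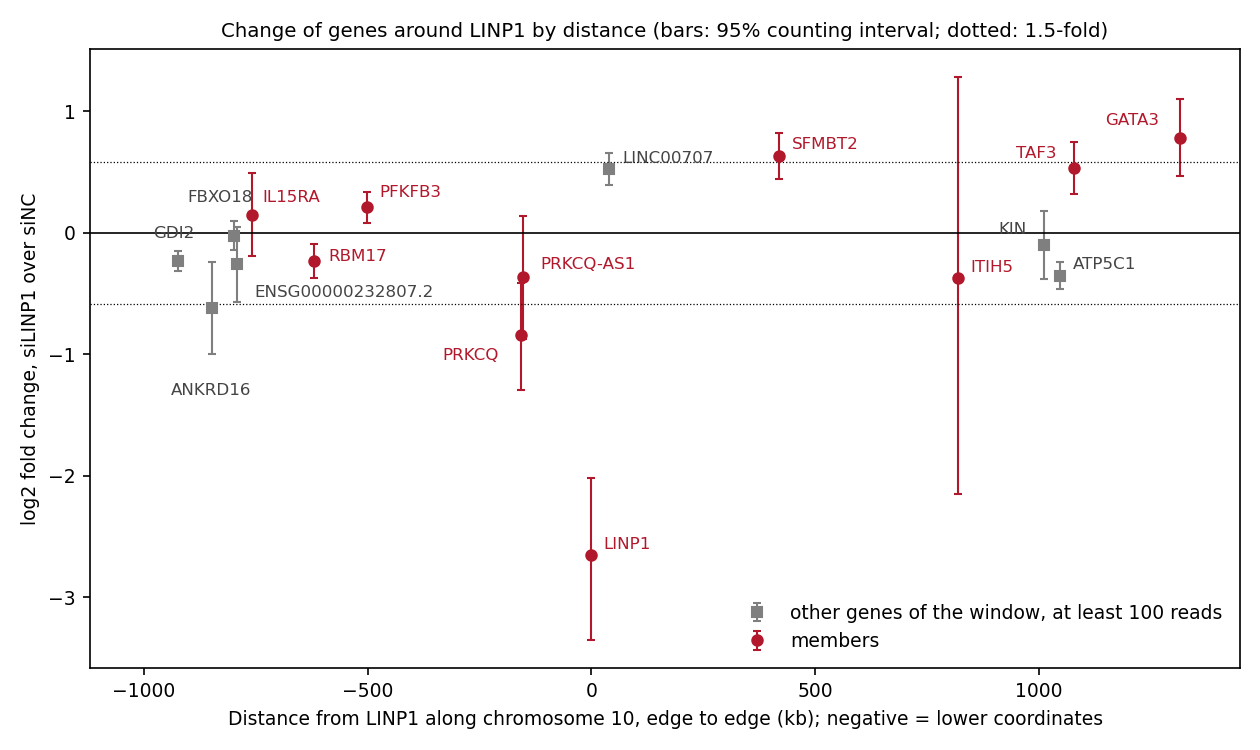
The log2 fold change of siLINP1 over siNC against the edge-to-edge distance from LINP1 in kb, negative toward lower coordinates, for the 10 genes (red circles) and the other genes of the window with at least 100 reads (grey squares). Bars are 95% counting intervals and dotted lines mark 1.5-fold. LINP1 is at -2.65, PRKCQ at -0.84, and SFMBT2, TAF3 and GATA3 on the right lie between 0.53 and 0.78, with KIN and ATP5C1 among them at or below 0.

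The change was then described against distance from LINP1, which was measured between the nearest edges of the genes by the positions of the table. Across the 9 neighbours, Spearman's rho of the log2 fold change with distance was 0.48 and Pearson's r was 0.66, with the lowest value at PRKCQ near LINP1 and the highest at GATA3, the farthest. The size of the change, without its sign, gave rho 0.033 and r 0.071. PRKCQ and GATA3, near the 2 ends of the range of distance, had values of opposite sign. When the other genes of the window were included, rho of the log2 fold change was 0.15 and r 0.15 over 22 genes. These include low-read rows, among them ENSG00000215244.2 and LOC399715, which overlap and hold the same reads. With at least 100 reads per gene, rho was 0.18. These points are genes of the same pair of libraries, which share depth and scaling, so the coefficients describe these libraries and carry no test.

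The order along the chromosome was looked at after the values had been seen. The 5 neighbours at lower coordinates had a median log2 fold change of -0.23 and the 4 at higher coordinates a median of 0.58. Of the 4 neighbours whose whole interval lay above 0, 3 were at higher coordinates. With the other window genes, the medians were -0.31 over 14 genes and 0.37 over 8 genes. The 0.37 is the midpoint between LINC00707 and the lncRNA LINC00706, which had 5 reads in each library and an interval from -1.91 to 2.33. The 14 genes include the overlapping rows ENSG00000215244.2 and LOC399715, which hold the same 8 reads in siNC and 2 in siLINP1. These low-read rows are also among the genes within 5 Mb. Not every gene followed its side. PFKFB3 was higher among the genes at lower coordinates, and ATP5C1, between ITIH5 and TAF3, had 1612 reads in siNC and 1091 in siLINP1, or -0.35 (95% interval -0.47 to -0.24). Within 5 Mb the medians were -0.12 over 33 genes and 0.21 over 13, but over these 46 genes rho with the signed position was -0.071 and r -0.12, of the opposite sign. For the 22 genes of the window rho with the signed position was 0.36, and for the 9 neighbours it was 0.40.

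The window holds 31 other rows of the table, of which 11 had no reads in either library, 18 in all had fewer than 10 reads and 13 were kept. Of the 13, 0 lay past 1.5-fold upward and 5 downward, with the whole interval above 0 for 1 and below 0 for 3. The 5 downward make 38.5% of the 13, beside 13.0% of all genes kept, and the shares of all genes kept for the other 3 counts were 14.4%, 23.0% and 25.6%. Of the 5, 4 had under 30 reads (the pseudogenes NRBF2P5 and RPL12P28, and ENSG00000215244.2 and LOC399715), and the last 2 are overlapping rows that both hold 8 reads in siNC and 2 in siLINP1. All but NRBF2P5 among these 4 had 3 or fewer reads in siLINP1, so no fold is given for them. The remaining one, ANKRD16, which encodes an ankyrin repeat protein, was read 163 times in siNC and 92 times in siLINP1, at -0.62 on the log2 scale, with the whole interval below 0. Among the better-read genes, GDI2, a GDP dissociation inhibitor of Rab GTPases, had 2803 and 2068 reads (-0.23), and FBXO18, a DNA helicase, had 1214 and 1033 (-0.023). KIN, a DNA- and RNA-binding protein, had 240 and 194 reads (-0.10). ATP5C1 encodes a subunit of the mitochondrial ATP synthase. IL2RA, the interleukin-2 receptor chain beside IL15RA, had 1 read in each library.

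The well-read gene nearest to LINP1 is not PRKCQ but LINC00707, an lncRNA on the same strand from 6821560 to 6884868, 40.7 kb away. It was read 877 times in siNC and 1089 times in siLINP1, which gave 0.52 on the log2 scale (95% interval 0.39 to 0.65), and its level per length was 15.2 RPKM in siNC and 23.1 RPKM in siLINP1, above each of the 10 genes in both libraries. ATP5C1 (72.9 and 60.4 RPKM) and GDI2 (61.7 and 55.7 RPKM) stood higher in both. FBXO18 was slightly above LINC00707 in siNC (15.5 RPKM) and below it in siLINP1 (16.1 RPKM). LINP1 and LINC00707 thus had log2 fold changes of opposite sign, 3.17 apart (95% interval 2.52 to 3.88). LINC00706, which starts beside LINC00707 and runs the other way, had 5 reads in each library.

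The annotation links this pair more closely than the count table shows. The RefSeq gene table lists LINC00707 as a synonym of LINP1, while the count table and GENCODE hold them as separate genes. GENCODE gives LINP1 a longer span, from 6751492 to 6782494, and annotates the lncRNA ENSG00000285988 with 4 exons, the first of which, from 6779380 to 6779590, lies wholly within exons of LINP1 and the other 3 within exons of LINC00707. This transcript skips the last exon of LINP1, in which both siRNA sites lie. A further lncRNA, ENSG00000285743, shares 43 bases with the exons of LINP1 and 261 with those of LINC00707. On the opposite strand, ENSG00000289892 overlaps the exons of LINP1 by 559 bases. How reads of shared exons were assigned is not given in the sources used here.

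**Figure D3:**
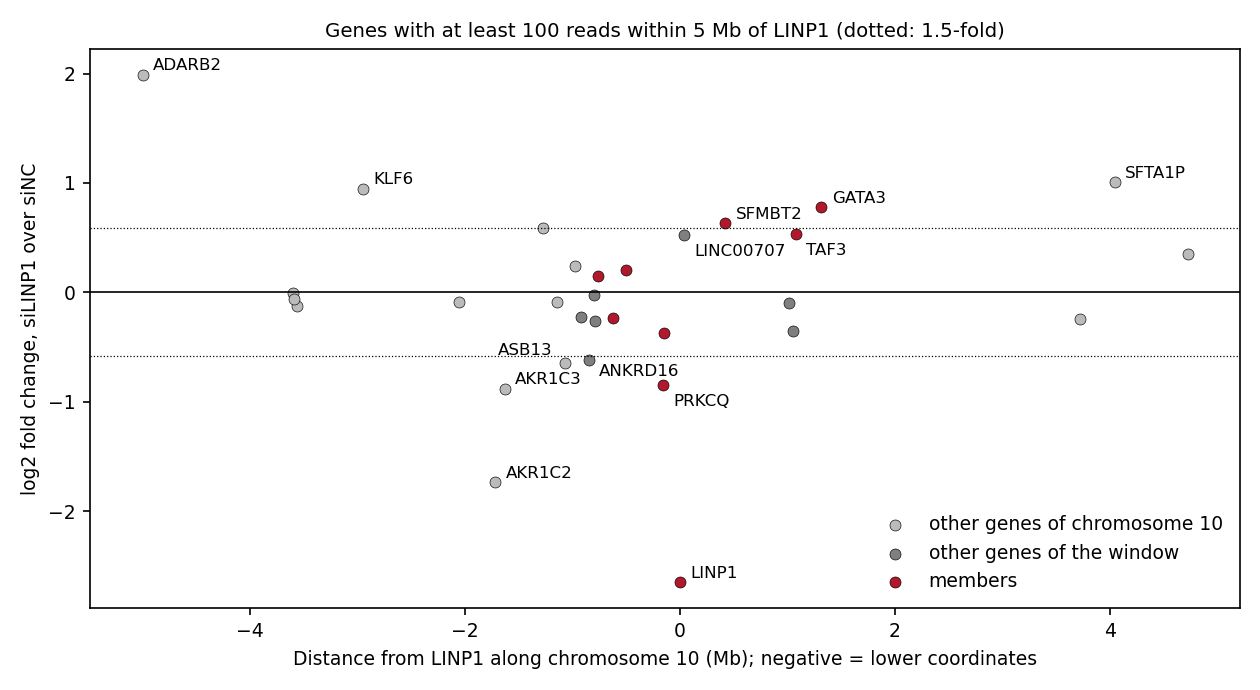
The log2 fold change of siLINP1 over siNC against distance from LINP1 in Mb for genes with at least 100 reads within 5 Mb, with those of the 10 genes that reach this depth in red, other genes of the window in dark grey and genes outside it in light grey. Dotted lines mark 1.5-fold. The spread of the points outside the window, from AKR1C2 at -1.73 to ADARB2 at 1.99, is wider than that of the neighbours without LINP1.

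The wider plot of genes within 5 Mb sets the neighbours beside the rest of chromosome 10. Within 500 kb of LINP1, 4 genes had at least 100 reads, with a median size of change of 0.58 on the log2 scale. The median size was 0.23 over 8 genes between 500 and 1000 kb, 0.53 over 7 genes between 1000 and 1500 kb, 0.35 over 11 genes between 1500 and 5000 kb, and 0.26 over the 467 genes farther away. The classes near LINP1 hold few genes, and the first is set by PRKCQ, SFMBT2, LINC00707 and PRKCQ-AS1. Of the 11 genes between 1500 and 5000 kb, 3 were higher by more than 1.5-fold (ADARB2, KLF6 and SFTA1P) and 2 were lower. Those 2 were the neighbouring and closely related aldo-keto reductase genes AKR1C2 and AKR1C3, whose reads may be shared between copies. Of the 467 genes farther away, 54 were higher and 25 lower by this measure. Over all genes with at least 100 reads, the shares were 8.72% and 6.77%, and a class of 11 genes is too small to set against them. AKR1C2 was read 146 and 38 times, in siNC and siLINP1, and the zinc finger transcription factor KLF6 was read 1347 and 2247 times. The median over chromosome 10 was 0.034 for 498 genes with at least 100 reads.

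The length of a gene on the chromosome went with its change over the whole table, and this bears on SFMBT2 and TAF3, which span 253 and 197 kb. Among genes with at least 100 reads, the median log2 fold change was -0.12 for 3390 genes of up to 10 kb and 0.13 for 959 genes of over 180 kb. Less the median of their span class, SFMBT2 was at 0.50 and TAF3 at 0.40. PRKCQ, in the same class with 187 kb, was at -0.98, and GATA3, with 20.5 kb, was at 0.84. The directions of the 9 neighbours were the same with and without this subtraction, but SFMBT2 then no longer passed 1.5-fold.

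**Figure D4:**
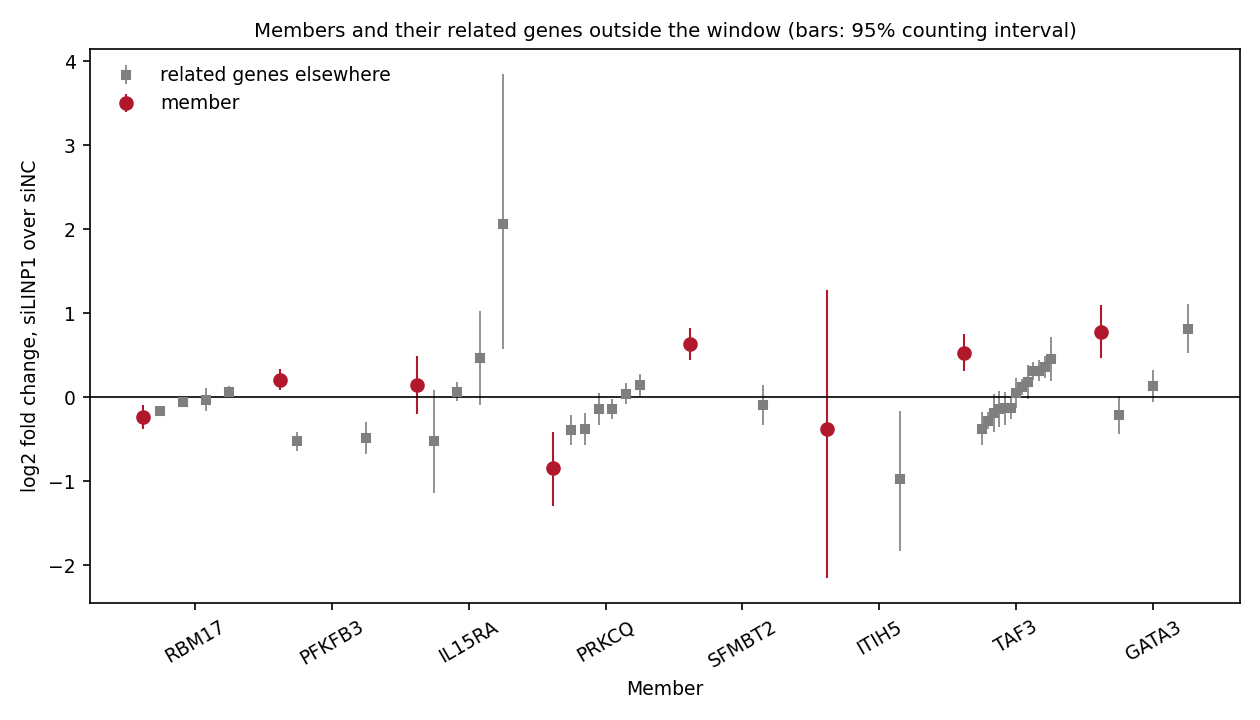
The log2 fold change of siLINP1 over siNC for each protein-coding neighbour (red circle) and for related genes outside the window with at least 10 reads (grey squares), with 95% counting intervals. PFKFB3 and SFMBT2 are above their relatives, PRKCQ is below the other protein kinase C genes, and GATA3 lies beside GATA6 at the top of its group.

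Genes of the same families and complexes elsewhere in the genome give the neighbours a functional context. Of 42 such genes, 34 were kept, of which 2 lay past 1.5-fold upward (GATA6 and IL2RG) and 1 downward (ITIH4), beside 14.4% and 13.0% of all genes kept. Their median was -0.077. The other protein kinase C genes ranged from -0.39 (PRKCH, with 640 reads in siNC and 422 in siLINP1) to 0.14 (PRKCI), and 0 of 6 passed 1.5-fold, compared with -0.84 for PRKCQ. PFKFB2 (607 and 376 reads, -0.48) and PFKFB4 (1756 and 1056 reads, -0.52), which encode the same kind of enzyme as PFKFB3, were lower where PFKFB3 was slightly higher. SFMBT1, the paralogue of SFMBT2, had 326 and 264 reads (-0.095, 95% interval -0.33 to 0.14).

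Among the transcription factors, GATA6 was read 167 times in siNC and 254 times in siLINP1, with a log2 fold change of 0.81 (95% interval 0.53 to 1.10) close to that of GATA3, whereas GATA2 (461 and 438 reads, 0.14) and GATA4 (376 and 281 reads, -0.21) were near 0. The 13 other TFIID subunits listed ranged from -0.37 (TAF8) to 0.46 (TAF5, with 223 and 265 reads), below the 0.53 of TAF3. Their interval was above 0 for 5 and below 0 for 3, beside 28.8% and 33.4% of all genes with at least 100 reads. For IL15RA, its ligand IL15 had 52 and 62 reads (0.46, 95% interval -0.092 to 1.02) and the shared receptor chain IL2RG had 5 and 18 reads. JAK1, a kinase of this receptor, had 1318 and 1193 reads (0.066). The splicing factors listed beside RBM17 ranged from -0.16 (U2AF2) to 0.067 (SF3B1). Of the inter-alpha-trypsin inhibitor genes, ITIH4 was kept, with 43 and 19 reads (-0.97).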

How the data were processed

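Total RNA of transfected HSC-1 cells was sequenced for the authors at RiboBio on an Illumina HiSeq instrument. Reads were aligned to GRCh37/hg19 with Tophat2 and counted per gene with HTSeq. The submitters' processing notes list HISAT2, TopHat2, Bowtie2, HISAT and hg19. The deposited counts are raw reads per gene. The deposited RPKM values were equal, to rounding, to those recomputed from each count, its gene length and the library total. Versions, annotation, counting mode and strand setting are not given in the sources used here. A further 12 per-sample columns, which match no sample label used here, were left out.

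Size factors by median of ratios over the whole table were 1.08 for siNC and 0.930 for siLINP1. Genes with at least 10 reads over both libraries were kept. Intervals are 95% Clopper-Pearson intervals of the split of a gene's reads, for levels exact Poisson intervals, and for differences between genes conditional intervals of the odds ratio. With 1 library per condition no test was made, and the calculations were tested on simulated counts. The genes named were the 10 genes, the other rows of the window and the listed relatives. Genes beyond the window were picked once their values were known, as were low-read genes of the window. The genes, lists and markers were chosen with earlier results of these data known. Exons came from GENCODE release 44 on GRCh37, and siRNA sequences from the study's list of oligonucleotides. GC content for the removal of a GC and length trend (lowess, fraction 0.3, 11974 genes) came from GENCODE transcripts matched by name. The software was R 4.3.3 with edgeR 4.0.16 for TMM factors, and Python 3.11.15. In Python, scipy 1.17.1 gave the intervals, statsmodels 0.14.6 the trend and matplotlib 3.10.9 the plots, and tables were handled in pandas 2.3.3 and numpy 2.4.6.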

Additional observations from a re-analysis of the deposited data

How the results depend on the processing

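The alternatives were scaling by the total count or by edgeR TMM factors, pseudocounts of 1 and 5, minima of 1 and 100 reads, a threshold of 2-fold, other measures of distance and other sets of genes. The removal of the GC and length trend, the subtraction of the span class median and the signed position were chosen after seeing the data. The sign of each of the 10 log2 fold changes was the same under every alternative that kept the gene (ITIH5 has under 100 reads), and each stayed within its counting interval. LINP1 ranged from -2.65 to -2.43, PRKCQ from -0.98 to -0.76, SFMBT2 from 0.50 to 0.72 and GATA3 from 0.76 to 0.91. Scaling by the total count shifted the median of all genes by 0.082, which took TAF3 to 0.61, past 1.5-fold.

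Counts past the threshold depended on it. Shares of all genes were computed at 1.5-fold with minima of 10 and 100 reads, so the other counts here have no background beside them. At 2-fold, 0 neighbours were higher and 0 lower, and 3 other window genes were lower. Those 3 were low-read rows, namely RPL12P28 (11 and 3 reads) and the overlapping ENSG00000215244.2 and LOC399715, which hold the same reads. The GC and length correction and the span correction each left 1 higher neighbour, GATA3. Of the other window genes (0 higher, 5 lower), scaling by total count put 1 higher (LINC00707) and left 4 lower, without ANKRD16. A minimum of 1 read gave 4 higher and 7 lower. The 4 higher each had under 10 reads, and GATA3-AS1 and SNORD129 among them had 0 in siNC. A minimum of 100 reads left 1 lower of 7, beside 6.77% of all genes read as well. For the 9 neighbours, rho with distance (0.48) was 0.58 and 0.62 with pseudocounts of 1 and 5, 0.62 between 5′ ends, and 0.40 along the signed position. Over 8 of the neighbours it was 0.67 with at least 100 reads and 0.43 for protein-coding genes. The rho of the size (0.033) was 0.20 with total count and -0.10 with a pseudocount of 5. It was -0.095 with at least 100 reads and -0.095 for protein-coding genes, each over a different 8 of the neighbours, so its sign was not settled. With the window genes, rho (0.15) was 0.36 along the signed position. A change of rho within 0.1 was read as none. No paired analysis was possible because each group had 1 library, and no library could be left out.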
